A study of Mus musculus with 6 samples.

Results

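The inflammasome genes of mouse microglia described here are the sensors *Nlrp3*, *Nlrc4*, *Aim2* and *Nlrp1b*, the adaptor *Pycard*, the caspases *Casp1* and *Casp4* and the pore-forming effector *Gsdmd*. Their members were every non-control probe on the array whose transcript accession maps to one of these 8 genes, which gave 12 of 56605 probes and 8 of 23462 named genes. *Aim2* and *Gsdmd* each had 2 probes, *Nlrp1b* had 3, and each of the other five genes had 1. Microglia, the resident macrophages of the brain, were sorted as live CD45lo CD11b+ Cx3cr1+ cells from 3-month-old mice and measured on 6 one-colour SurePrint G3 Mouse arrays, in which the fluorescence of each probe rises with the amount of its RNA. The 3 control samples were Bhlhe41 dTomato-Cre/+ (B41HET), and the 3 knockout samples were Bhlhe41 dTomato-Cre/dTomato-Cre (B41KO). Both genotypes therefore carried the reporter allele, in which a cassette for the red fluorescent protein dTomato and the recombinase Cre, closed by a polyadenylation signal, lies ahead of the *Bhlhe41* start codon. The allele is present in every cell of the animal and *Bhlhe41* is also active in other immune cells, such as alveolar macrophages and B-1 cells, so the comparison is not restricted to loss in microglia, and no wild-type sample was on the arrays. The Methods describe each sample as a pool of several mice, whereas the labels count 3 animals per genotype, and p-values measure the spread between these samples.

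Inflammasomes are complexes that form in the cytosol when a sensor meets a microbial product or a sign of cell damage. The sensor recruits ASC, the product of *Pycard*, and ASC gathers and activates caspase-1, which matures the cytokines IL-1β and IL-18 and cuts gasdermin D, the product of *Gsdmd*, into a fragment that opens pores in the plasma membrane. In the brain, microglia are a main source of NLRP3 inflammasome activity and of IL-1β, and transcription of *Nlrp3* itself is a control step, called priming, that depends on NF-κB. Activation takes place at the protein level, so the arrays report on the supply of transcripts and not on the activity of the complex.

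*Bhlhe41* encodes a transcriptional repressor of the basic helix-loop-helix family that binds the E-box CACGTG, and its transcript was read first as a check of the labels. Its 2 probes gave log2 intensities of 7.95, 7.87 and 7.65 in B41HET against 8.56, 7.84 and 8.21 in B41KO, and 7.86, 7.58 and 7.40 against 7.96, 7.90 and 7.96. Neither was lower in B41KO, with differences, on the log2 scale and as B41KO minus B41HET throughout, of 0.38 (adjusted p = 0.330) and 0.33 (adjusted p = 0.203), so the array signal of the targeted gene does not check the genotype labels. Where the probes lie relative to the inserted cassette was not examined.

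None of the 12 inflammasome probes was called as different between B41KO and B41HET in limma, where a call needed an adjusted p of 0.05 or less together with a log2 difference of at least 0.5 in either direction. Of all 56601 probes tested, 5.07% were called, 3.34% as lower and 1.72% as higher in B41KO, and of all named genes, each represented by its brightest probe, 5.45% were called. At an unadjusted p under 0.05, 3 of the 12 member probes passed in limma, *Nlrp3*, *Casp4* and 1 of the *Gsdmd* probes, against 23% of all probes, and with the adjusted p alone only *Nlrp3* passed, against 6.73%. The exact permutation test of 3 against 3 samples cannot give a two-sided p below 0.1, and it gave that value for the same 3 probes. The genotypes did not overlap on 3 of the 12 probes, as on 29.7% of all probes. Lower means in B41KO were found for 7 of the 12 probes, against 47.3% of all probes, and for 5 of the 8 genes, against 48.8% of all named genes. The median log2 difference was -0.02 over the member probes and 0.02 over all probes.

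**Figure D1:**
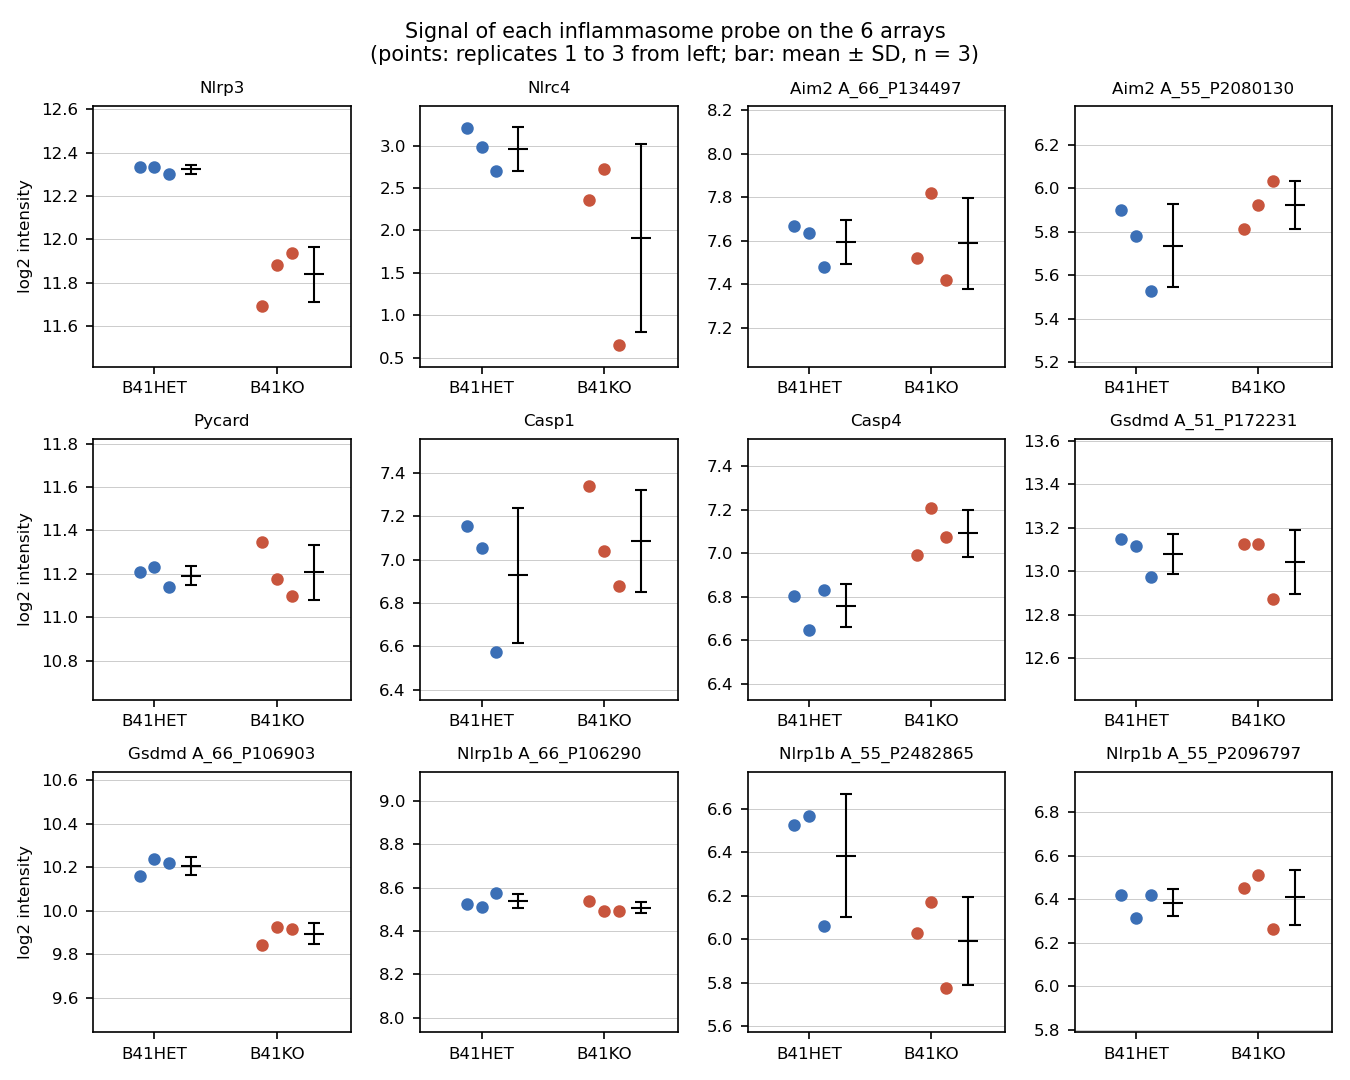
Normalized log2 intensity of each of the 12 inflammasome probes, 1 panel per probe, with a point per sample for B41HET (blue) and B41KO (red) and the mean with SD (n = 3) beside the points. The genotypes are apart without overlap for Nlrp3, for Casp4 and for the Gsdmd probe A_66_P106903, and the Nlrc4 panel covers a wider range of values than the others, with B41KO replicate 3 at 0.65.

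The members are described from sensor to effector. *Nlrp3* encodes the sensor that responds to potassium efflux and many forms of cell stress, and it was the one member past the adjusted p. Its log2 intensity was 12.33, 12.33 and 12.30 in B41HET replicates 1 to 3, and 11.70, 11.88 and 11.94 in B41KO replicates 1 to 3. The 3 B41HET samples lay within a few hundredths of each other, all B41KO samples were below them, and a gap of 0.36 separated the genotypes. The difference was -0.48 (SE 0.09, 95% confidence interval -0.70 to -0.27), a level 1.40-fold higher in B41HET, with an adjusted p of 0.0356 in limma. It missed the fold threshold by a small margin, and 8.45% of all probes had a difference further below 0 than this one.

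The *Nlrp3* difference kept its direction under all 16 alternative settings, from -0.63 to -0.41. The filter on dim probes, trend and robust variance, the replicate block and the lifted fold threshold keep the fitted difference by construction. So does the probe average, as *Nlrp3* has 1 probe. The adjusted p ranged from 0.00657 to 0.120 and was 0.05 or less in 8 of the 16 settings. Among these 8, the lifted fold threshold repeats the main adjusted p of 0.0356. Leaving out any 1 of the 6 samples put the adjusted p between 0.0647 and 0.120. The arrays lay in 2 rows of 1 slide, with B41HET replicates 1 to 3 and B41KO replicate 1 in row 1 and the other B41KO arrays in row 2. Within row 1, B41KO replicate 1 was at 11.70 and the B41HET mean at 12.32. With slide row as a block the difference was -0.63. As row 2 holds no B41HET array, this value is the same contrast of 1 B41KO array with 3 B41HET arrays.

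**Figure D2:**
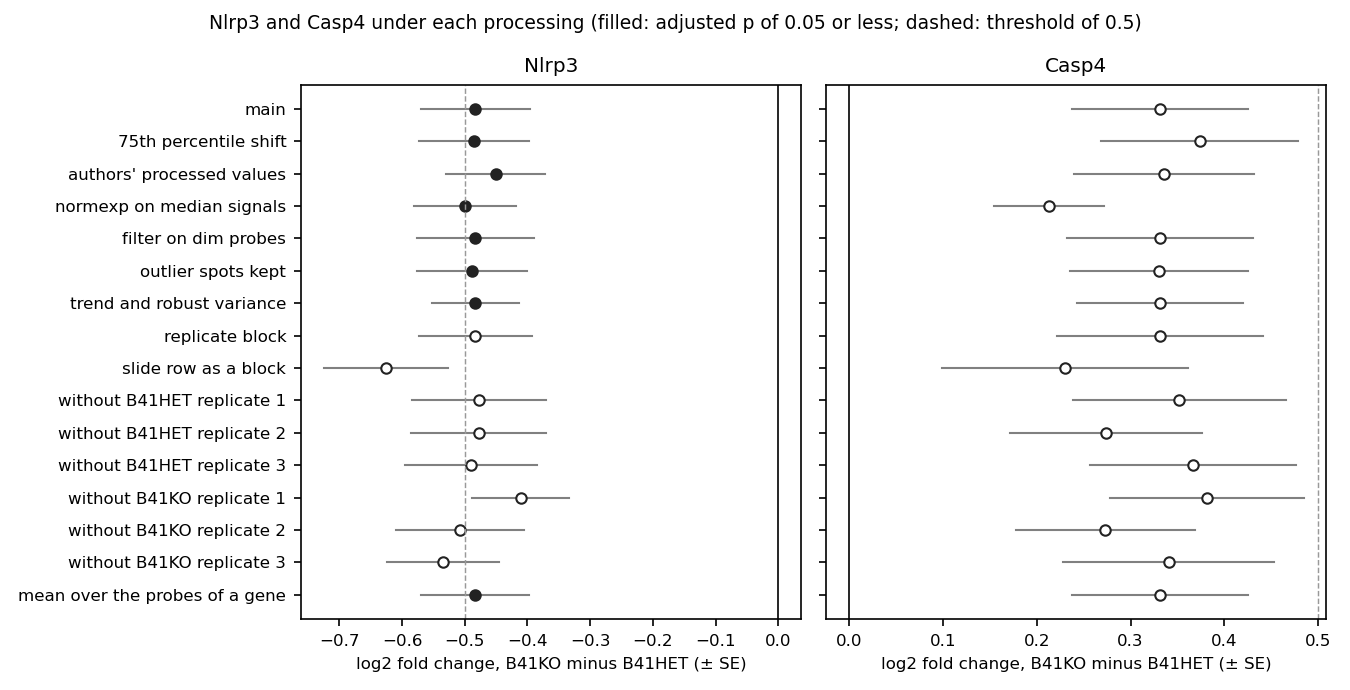
Log2 fold change (B41KO minus B41HET) of Nlrp3, left, and Casp4, right, under the main processing and each alternative on the vertical axis, with the SE as a horizontal line. Filled points have an adjusted p of 0.05 or less. Every Nlrp3 point lies below 0, between -0.63 and -0.41, every Casp4 point lies above 0, between 0.21 and 0.38, and no Casp4 point is filled.

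*Nlrc4* encodes the sensor that forms an inflammasome with NAIP proteins bound to bacterial flagellin or secretion system parts. Its probe was near the background of the arrays, well above it on 2 of 3 B41HET and 1 of 3 B41KO arrays. The log2 intensities were 3.21, 2.98 and 2.70 in B41HET and 2.36, 2.73 and 0.65 in B41KO, so the genotypes overlapped and B41KO replicate 3 stood far below the rest. The difference of -1.05 (95% confidence interval -2.42 to 0.32, adjusted p = 0.332) had the widest interval of the 12 probes. It was -0.42 without B41KO replicate 3 and -0.06 when median spot signals corrected by normexp replaced the processed signal, so that the size of the *Nlrc4* difference could not be set from these arrays.

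*Aim2* encodes the sensor of double-stranded DNA in the cytosol. On probe A_66_P134497, the brighter, its log2 intensity was 7.67, 7.64 and 7.48 in B41HET and 7.52, 7.82 and 7.42 in B41KO, an overlap with a difference of -0.008 (95% confidence interval -0.32 to 0.31, adjusted p = 0.981). On probe A_55_P2080130 the values were 5.90, 5.78 and 5.53 against 5.81, 5.92 and 6.03, with a difference of 0.19 (95% confidence interval -0.12 to 0.49, adjusted p = 0.442) that ranged from 0.08 to 0.27 with each sample left out, the lowest without B41HET replicate 3. Neither *Aim2* probe separated the genotypes, and the 2 probes differed in the sign of their small differences.

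*Nlrp1b* encodes the mouse sensor known for its cleavage by anthrax lethal factor. It belongs to a cluster of near-identical copies on chromosome 11, so its probes may also bind transcripts of its neighbours. Probe A_66_P106290 gave 8.53, 8.51 and 8.58 in B41HET and 8.54, 8.49 and 8.49 in B41KO, overlapping and with the narrowest range over the 6 arrays of the 12 probes, and a difference of -0.03 (95% confidence interval -0.19 to 0.13, adjusted p = 0.824). Probe A_55_P2096797 gave 6.42, 6.31 and 6.42 against 6.45, 6.51 and 6.26, also overlapping, with a difference of 0.02 (adjusted p = 0.910). Probe A_55_P2482865 gave 6.53, 6.57 and 6.06 against 6.03, 6.17 and 5.77, and its difference of -0.39 had an interval from -0.83 to 0.05 that includes 0 (adjusted p = 0.265). The 3 *Nlrp1b* probes thus gave differences of -0.03, 0.02 and -0.39. Within an array, the differences between these probes had ranges that overlapped between the genotypes, with exact two-sided permutation p of 0.3, 0.6 and 0.2 for the 3 pairs, where 0.1 is the smallest possible.

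*Pycard*, which encodes the adaptor ASC, was at 11.21, 11.23 and 11.14 in B41HET and 11.35, 11.18 and 11.10 in B41KO. The samples of both genotypes were interleaved, and the difference was 0.02 (SE 0.09, 95% confidence interval -0.21 to 0.24, adjusted p = 0.946). These bounds leave out a difference of 0.5, the fold threshold, in either direction, as they do for the brighter probes of *Aim2*, *Gsdmd* and *Nlrp1b*.

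*Casp1*, the protease that all ASC-dependent inflammasomes activate, was measured less closely. Its log2 intensity was 7.16, 7.05 and 6.57 in B41HET and 7.34, 7.04 and 6.88 in B41KO, overlapping, with B41HET replicate 3 the lowest of the 6. The difference was 0.16 (SE 0.20, 95% confidence interval -0.33 to 0.65, adjusted p = 0.697), and without B41HET replicate 3 it was -0.02. A change past the fold threshold in the upward direction lies inside this interval.

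*Casp4*, named *Casp11* in older mouse literature, encodes the caspase that binds lipopolysaccharide in the cytosol and cuts gasdermin D without ASC. Its log2 intensity was 6.80, 6.65 and 6.83 in B41HET and 6.99, 7.21 and 7.08 in B41KO. All 3 B41KO samples were higher, with a gap of 0.16, and 14.5% of all probes showed the same separation in that direction. The difference of 0.33 (SE 0.09, 95% confidence interval 0.10 to 0.56) had an adjusted p of 0.106 and was not called. It was positive in all alternatives, some of which, as for *Nlrp3*, keep the fitted difference by construction. The adjusted p was 0.0553 at its lowest, and 0.138 to 0.260 with each sample left out. Within slide row 1, B41KO replicate 1 was 0.23 above the B41HET mean.

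*Gsdmd* encodes the effector that forms the membrane pores. Its brighter probe, A_51_P172231, gave 13.15, 13.12 and 12.97 in B41HET and 13.13, 13.13 and 12.87 in B41KO, an overlap with a difference of -0.04 (95% confidence interval -0.30 to 0.22, adjusted p = 0.871). The dimmer probe, A_66_P106903, gave 10.16, 10.24 and 10.22 against 9.84, 9.93 and 9.92. On this probe all B41KO samples were lower, with a gap of 0.23, as on 15.2% of all probes, and the difference was -0.31 (SE 0.07, 95% confidence interval -0.48 to -0.14, adjusted p = 0.0572). Its adjusted p was 0.05 or less in 3 of 15 alternatives, with a range of 0.0115 to 0.198. The brighter probe exceeded the dimmer by 2.76 to 2.99 on the log2 scale in B41HET and by 2.95 to 3.28 in B41KO. These ranges overlapped slightly, and the distance between the probes was 0.27 larger in B41KO in the mean (exact permutation test, two-sided p = 0.2, where 0.1 is the smallest possible).

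**Figure D3:**
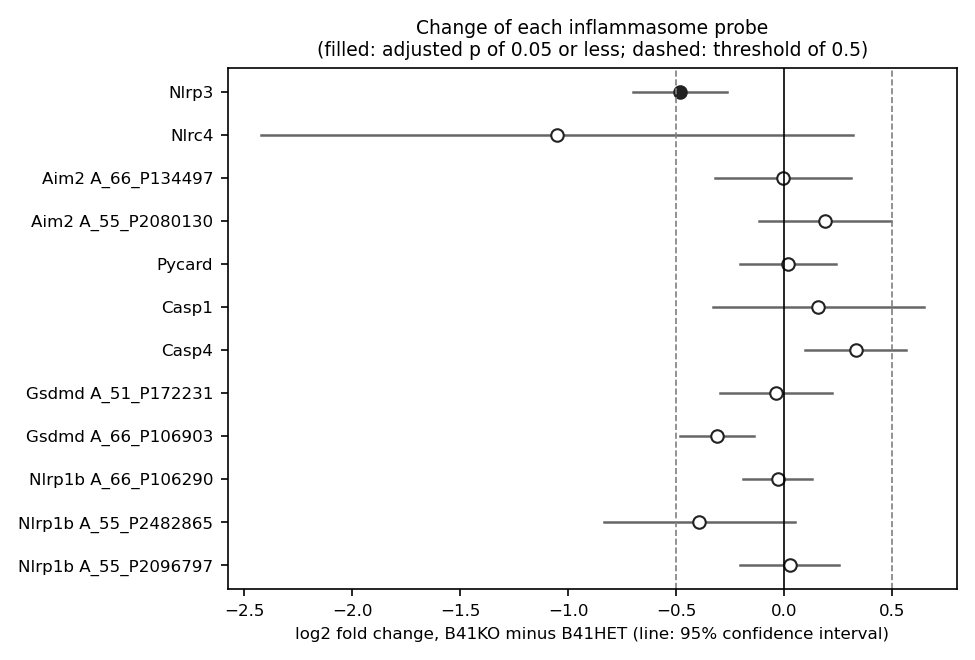
Log2 fold change (B41KO minus B41HET) of each of the 12 inflammasome probes with its 95% confidence interval as a line, and dashed lines at the fold threshold of 0.5 in both directions. The Nlrp3 point alone is filled, for an adjusted p of 0.0356, and lies inside the threshold at -0.48, while the interval of Nlrc4 runs from -2.42 to 0.32.

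Since Bhlhe41 binds the E-box CACGTG, the promoters of the members were searched for it. The windows, from RefSeq on GRCm38.p6, run from 250 bases before to 50 bases after each annotated start, and the letters CACGTG read the same on both strands. A match was found in 1 of the 10 windows of 7 members, that of *Casp1* at position -137 relative to the start, and in 7.15% of all 32851 windows. *Gsdmd* had no window in the table. The *Casp1* window is printed as the one with a match and those of *Nlrp3* as the member with the lowest adjusted p, with any E-box in capitals:

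Casp1, chr9:5298267-5298566, plus strand: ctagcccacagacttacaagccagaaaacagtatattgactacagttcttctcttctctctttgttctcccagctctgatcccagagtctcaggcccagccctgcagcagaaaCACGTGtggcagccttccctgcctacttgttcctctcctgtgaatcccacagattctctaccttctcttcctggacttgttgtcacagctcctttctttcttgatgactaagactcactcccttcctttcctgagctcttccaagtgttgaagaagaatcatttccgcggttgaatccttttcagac

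Nlrp3, chr11:59541319-59541618, plus strand: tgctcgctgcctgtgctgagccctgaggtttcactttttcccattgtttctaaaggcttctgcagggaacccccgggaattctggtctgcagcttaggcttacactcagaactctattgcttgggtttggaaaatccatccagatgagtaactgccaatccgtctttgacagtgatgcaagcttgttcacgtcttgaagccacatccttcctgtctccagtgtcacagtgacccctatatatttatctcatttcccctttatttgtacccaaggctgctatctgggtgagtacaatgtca

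Nlrp3, chr11:59542436-59542735, plus strand: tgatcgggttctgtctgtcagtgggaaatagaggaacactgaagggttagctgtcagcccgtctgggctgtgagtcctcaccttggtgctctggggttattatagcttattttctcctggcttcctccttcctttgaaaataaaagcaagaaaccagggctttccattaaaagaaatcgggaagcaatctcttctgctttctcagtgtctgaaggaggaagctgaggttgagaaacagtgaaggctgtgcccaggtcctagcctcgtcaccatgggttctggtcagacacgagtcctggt

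The *Casp1* window holds the letters in capitals once and both *Nlrp3* windows lack them, which describes these 300 bases and says nothing about binding. *Casp1*, with the match, differed by 0.16 between the genotypes without a call, and *Nlrp3*, without one, by -0.48.

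Markers of other cell types were also detected, and several of these lists differed by genotype. All 12 microglia markers were well above background on all 6 arrays, and 1 of them was called, *Fcrls*, with a difference of -0.76 (adjusted p = 0.00581). Of 10 neutrophil markers, all 10 were detected on every array and 9 were called as lower in B41KO, with a median of -2.49. The summed intensity of the neutrophil list, on a linear scale, was 31134 to 35083 in B41HET and 5802 to 6297 in B41KO. Monocyte markers were lower for 5 of 6, with 3 called and sums of 1357 to 1452 against 362 to 388, and border macrophage markers for 8 of 8, with 5 called and sums of 2372 to 2568 against 1605 to 1790. Genes induced when cells are prepared ex vivo, such as *Fos* and *Dusp1*, were lower for 8 of 8, with 4 called and sums of 43083 to 45540 against 25811 to 27237. Endothelial markers were lower for 4 of 5, with 2 called and sums of 1146 to 1257 against 402 to 453. The 2 called were *Ly6c1* (difference -1.79) and *Pecam1* (-1.68). *Cldn5* differed by -0.13, *Kdr* by -0.009 and *Cdh5*, at a mean log2 intensity of only 0.82, by 0.22, all without a call. Dendritic cell markers were lower for 4 of 6, with 2 called and sums of 321 to 365 against 177 to 205. The other lists differed less, with lymphocyte sums of 373 to 383 against 344 to 360, oligodendrocyte sums of 1417 to 1487 against 1445 to 1727, astrocyte sums of 1761 to 1849 against 1971 to 2185 and neuron sums of 20172 to 22232 against 20821 to 21650. Of these, 1 lymphocyte and 1 oligodendrocyte marker were called lower on the brightest probe. No marker was called higher on it, though a dimmer probe of the astrocyte marker *Aqp4*, A_52_P625527, was (difference 0.70, adjusted p = 0.0255). The neuron sum came mostly from 1 probe of *Snap25*, at a mean log2 intensity of 14.37, while the other *Snap25* probe was at 1.02. Of the 5 neuron markers, 2 were not well above background on any array. The share called lower over all named genes was 4.01%. Neutrophils and monocytes also express *Nlrp3* and other inflammasome genes. The sort was for CD45lo Cx3cr1+ cells, and the part of any other cells in the differences was not tested. In bulk samples, fewer cells of a type and less RNA per cell cannot be told apart.

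The genes that act with the members were taken in 5 lists with 48 genes on the arrays. Of these, 5 were called as lower in B41KO and 0 as higher (1 as higher with a filter on dim probes or with trend and robust variance), and 26 had a lower mean, with a median difference of -0.06 beside 0.007 for all named genes. Over all named genes, 4.01% were called lower and 1.44% higher. The called genes lay in 3 of the lists, the triggers and regulators, the cytokine output and the transcription factors, and none lay among other sensors or other caspases.

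Among the 9 other sensors, no gene was called and 2 had lower means, with a median of 0.26. *Nlrp1a*, a paralogue of *Nlrp1b*, was at 13.41, 13.43 and 13.29 in B41HET and 13.63, 13.72 and 13.56 in B41KO. All B41KO samples were higher, by 0.26 on average (adjusted p = 0.127), whereas the other *Nlrp1a* probe differed by -0.23 (adjusted p = 0.140), and the probes of these paralogues may share transcripts. *Naip2*, the receptor for the rod protein of bacterial secretion systems, was at 9.06, 9.16 and 9.05 in B41HET and 9.38, 9.39 and 9.28 in B41KO, with a difference of 0.26 (adjusted p = 0.107). The genotypes did not overlap for *Naip2*, but they did for *Naip5*, the flagellin receptor, with a difference of 0.12 (adjusted p = 0.494) and one of 0.37 on its other probe (adjusted p = 0.117), and for *Mefv*, which encodes pyrin, with 0.02 (adjusted p = 0.917) and 0.08 on its other probe (adjusted p = 0.647).

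Of the 12 triggers and regulators, 2 were called, both lower, and the median of the list was -0.03. *Serpinb1a*, an inhibitor of neutrophil proteases that also restrains caspase-1, was at 7.29, 7.22 and 7.16 in B41HET and 4.98, 4.80 and 4.85 in B41KO. It fell by 2.34 on the log2 scale (SE 0.08, adjusted p = 0.000571), a level 5.07-fold higher in B41HET, with no overlap. The neutrophil markers differed in the same direction, and their part in the *Serpinb1a* difference was not tested. *Txnip*, a thioredoxin-binding protein that can associate with NLRP3, was at 14.54, 14.49 and 14.51 in B41HET and 13.94, 13.98 and 13.87 in B41KO. It fell by 0.58 (SE 0.07, adjusted p = 0.0120) on this probe, while its other probe differed by -0.10 (adjusted p = 0.538).

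*Nek7*, the kinase that binds NLRP3 and is needed for its assembly, was at 9.41, 9.30 and 9.39 in B41HET and 8.96, 9.05 and 8.83 in B41KO. All B41KO samples were lower, with a difference of -0.42 and an adjusted p of 0.0503, just outside the threshold. The other *Nek7* probe, A_66_P108499, differed by -0.37 and passed the adjusted p (0.0446) but not the fold threshold. *P2rx7*, the ATP-gated channel that lets potassium leave the cell, differed by 0.04 (95% confidence interval -0.14 to 0.21) on its brightest probe. Its other probes differed by -0.51 (A_51_P506733, adjusted p = 0.219) and by -0.16 (A_55_P2183010, adjusted p = 0.479), so the 3 *P2rx7* probes did not give 1 value. *P2rx4*, a related channel, was at 8.61, 8.78 and 8.70 against 9.03, 8.92 and 9.21, higher in all B41KO samples by 0.35 (adjusted p = 0.109), with the same 0.35 on its other probe (adjusted p = 0.439). *Nlrc3*, a regulator that limits inflammatory signalling, differed by 0.10 (adjusted p = 0.598). *Cd36*, a scavenger receptor whose ligands can set off NLRP3, was not well above background on any B41KO array, and its B41HET mean was at least 1.24-fold higher, with an adjusted p of 0.0671 (the gene was named for this state after its values were seen). Such a bound sets the B41HET mean against the lowest signal well above background on each B41KO array, or the signal of the probe itself where that was higher. It compares means only and makes no allowance for the spread between samples.

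No gene was called among the 10 other caspases and executors of lytic death, 6 of which had lower means, with a median of -0.11. *Ninj1*, which ruptures the plasma membrane after gasdermin pores have opened, was at 12.16, 12.09 and 12.20 in B41HET and 11.92, 11.96 and 11.88 in B41KO. The genotypes did not overlap, with a difference of -0.23 (adjusted p = 0.118), but the other *Ninj1* probe, A_55_P2142830, differed by 0.29 in the opposite direction (adjusted p = 0.0674). The apoptotic adaptor *Fadd* was lower in all B41KO samples as well, with a difference of -0.28 (adjusted p = 0.173). *Casp8*, the protease at the branch point of apoptosis, necroptosis and pyroptosis, differed by -0.15 (adjusted p = 0.657) and the kinase gene *Ripk1* by 0.11 (adjusted p = 0.478), both with overlap, while the other *Ripk1* probe differed by -0.19 (adjusted p = 0.319).

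Among the 10 genes of the IL-1 family output, 6 had lower means, 1 was called and the median was -0.25. *Il1r2*, the decoy receptor that captures IL-1 without signalling, was at 6.64, 6.61 and 6.36 in B41HET and 4.19, 4.87 and 4.53 in B41KO. It fell by 2.01 (SE 0.19, adjusted p = 0.00744), and its other probe fell by 1.22 (adjusted p = 0.0134). *Il1r2* is abundant in neutrophils, whose markers were lower in B41KO too, and their part was not tested. *Il1b*, which encodes the cytokine that caspase-1 matures, was at 8.12, 8.11 and 8.35 in B41HET and 7.84, 7.72 and 7.93 in B41KO. All B41KO samples were lower on this probe, with a mean difference of -0.37 (adjusted p = 0.105), while its dimmer probe, A_66_P114500, fell by 1.56 and was called (adjusted p = 0.0120), so the 2 *Il1b* probes differ in size and in the call. *Il1a* was at 9.61, 9.48 and 9.50 against 9.26, 9.07 and 9.10, again without overlap, with a difference of -0.39 (adjusted p = 0.0585).

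On the brightest probes, the confidence intervals of both antagonists of the cytokines included 0. *Il1rn*, the receptor antagonist, had a difference of 0.16 (adjusted p = 0.498), and *Il18bp*, which neutralises IL-18, of -0.25 (adjusted p = 0.272), while the dimmer *Il18bp* probe differed by 0.06 (adjusted p = 0.839). *Il18* itself, named although outside the rule and after its values were seen, was at 6.16, 6.15 and 6.06 in B41HET and 6.29, 6.49 and 6.06 in B41KO, with overlap and a difference of 0.16 (adjusted p = 0.525). *Il1r1*, the signalling receptor, also named after its values were seen, was not well above background on any B41KO array. By the same bound on means, which leaves out the spread between samples, B41HET was at least 1.47-fold higher, with an adjusted p of 0.149 in limma.

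**Figure D4:**
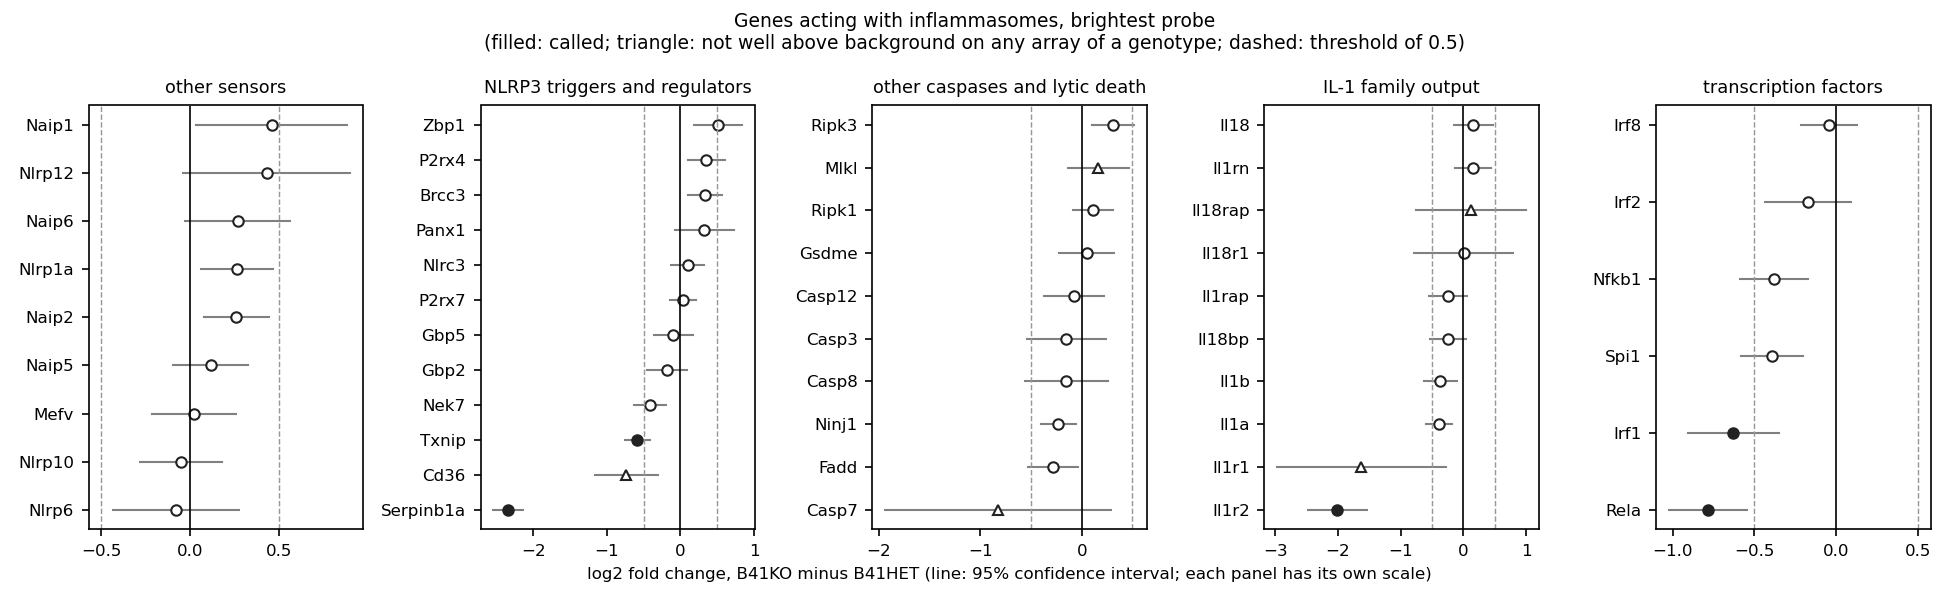
Log2 fold change (B41KO minus B41HET) of the brightest probe of 47 of the 48 genes that act with inflammasomes, with 95% confidence intervals as lines and 1 panel per list, each with its own scale. Filled points were called, open points were not, and triangles mark probes that no array of a genotype measured well above background, whose fitted difference is no measured size. The called genes Serpinb1a, Txnip, Il1r2, Irf1 and Rela all lie below 0.

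The transcription factors that drive inflammasome genes had lower means in 6 of 7 cases, with 2 called lower and a median of -0.38. Over all named genes, 48.8% had lower means and 4.01% were called lower. *Rela*, which encodes the p65 subunit of NF-κB, was at 11.86, 11.58 and 11.80 in B41HET and 10.93, 11.00 and 10.96 in B41KO. It fell by 0.78 (SE 0.10, adjusted p = 0.0137) on this probe, but the other *Rela* probe, A_55_P1974288, was 0.39 higher in B41KO (adjusted p = 0.0823), so the probes of *Rela* point in opposite directions. *Irf1*, the interferon regulatory factor that supports *Casp4* and guanylate-binding protein genes, was at 12.51, 12.69 and 12.41 in B41HET and 12.04, 11.91 and 11.77 in B41KO. It fell by 0.63 (SE 0.11, adjusted p = 0.0349), while its other probe differed by -0.03 (adjusted p = 0.872).

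*Nfkb1*, which encodes the precursor of the p50 subunit of NF-κB, was at 9.92, 9.86 and 10.02 in B41HET and 9.59, 9.62 and 9.46 in B41KO. The genotypes were apart, with a difference of -0.38 (adjusted p = 0.0589). *Spi1*, the myeloid master regulator PU.1, was at 13.11, 12.98 and 13.04 against 12.73, 12.61 and 12.60 and, like *Nlrp3*, passed the adjusted p but not the fold threshold, with -0.39 (adjusted p = 0.0420). *Irf8*, a regulator of microglial identity, overlapped between the genotypes, with a difference of -0.04 (95% confidence interval -0.21 to 0.13).

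Over the 6 arrays, the genes outside the members whose brightest probe ran most like that of *Nlrp3*, among 17215 genes well above background on all arrays, were *Tbc1d9b* (Pearson r = 0.999), *Gria4* (r = 0.998) and *E2f2* (r = 0.998). Their own differences between the genotypes were -0.42, -0.64 and -1.36. The arrays share 1 slide and 1 normalization, and a probe that separates the genotypes as *Nlrp3* does is bound to correlate with it, so that these coefficients are a description only. Between the members themselves, *Casp4* ran most against *Nlrp3* (r = -0.79).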

How the data were processed

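The authors deposited, per array, the scanner output of Feature Extraction 11.5.1.1, with each probe's intensity background-subtracted within the array and not normalized between arrays. They also deposited a table of processed log2 values, equal in distribution across samples, which was used as an alternative. Outlier-flagged spots (95 to 136 per array) and control spots were left out, which kept up to 59305 of 62976 spots. The log2 intensity was quantile normalized and averaged per probe, and genotypes were compared with limma 3.58.1 in R 4.3.3, with genotype as the only term and Benjamini-Hochberg adjustment over 56601 probes. Thresholds followed the Methods. The 8x60K design is based on mm9, and accessions were named through RefSeq (GRCm38.p6), which named 33767 probes (59.7%). A gene was represented by its brightest probe.

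Between 70.1% and 75.5% of probes were well above background and no spot was saturated. The number of arrays limits precision. Arrays of one genotype correlated at 0.989 to 0.993 and those of different genotypes at 0.985 to 0.989. Named genes were all members, *Bhlhe41*, called genes of each pathway list with up to 4 of its brightest others, and the 3 genes most like *Nlrp3*. A few more of the pathway lists were named after their values were seen, as stated there. Marker lists were given as counts and sums, with only some of their genes named. The values of 1 gene of the transcription factor list are not reported here, though the counts of that list include it. Members and lists were chosen with earlier results of these data known. The fit was tested on simulated data with 200 changed probes, where it called 50% of log2 changes of 1 and 82% of changes of 2. Of its 138 calls there, 6 were false. Figures were drawn with matplotlib 3.10.9.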

Additional observations from a re-analysis of the deposited data

How the results depend on the processing

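No inflammasome probe or gene was called under any alternative except the adjusted p alone, which gave 1 probe and 1 gene, *Nlrp3*. The 2867 calls over all probes became 1500 with normexp on median spot signals, which changes both the signal and the background correction, 444 with slide row as a block, 42 with the replicate block, and 796 to 1487 without each sample in turn. The 5 pathway genes called became 3 when the probes of each gene were averaged, 1 with the replicate block and 2 to 3 without each sample. They became 7 with the filter on dim probes (6 lower) and 6 with trend and robust variance (5 lower). Slide row as a block is left out of these counts, since its genotype contrast rests on the 1 B41KO array of row 1. The same-numbered samples' deviations correlated at 0.03, 0.01 and 0.05, so the replicate numbers were not taken as pairs, and not every sample correlated best with its own number. With a shift to each array's 75th percentile, 53.9% of calls were lower in B41KO, against 66.0%, and the median of all probes was 0.13, with *Nlrp3* at -0.48 there. Differences near 0 changed sign for *Aim2* (0.011 with that shift, 0.0064 with normexp on median signals, 0.090 when its probes were averaged, and -0.12 to 0.076 without each sample). They did so too for *Nlrp1b* (0.0037 with normexp on median signals) and *Gsdmd* (0.045 with slide row as a block, and -0.090 to 0.047 without each sample). Without each sample, *Pycard* ranged from -0.054 to 0.071, *Casp1* from -0.019 to 0.27 and the *Nlrp1b* probe A_55_P2096797 from -0.026 to 0.097. With slide row as a block, *Pycard* was at 0.15 and *Casp1* at 0.41. *Pycard* was at 0.10 with the authors' processed values, and *Casp1* at 0.0038 with normexp on median signals. The causes were not tested. Near background, as for *Nlrc4*, signal limits what can be measured.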
